A study of Mus musculus with 11 samples.

Results

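The genes described here are 39 mouse genes of the lysosome: the transcription factors Tfeb, Tfe3 and Mitf, 4 subunits of the proton pump, 8 proteins of the lysosomal membrane and 24 enzymes, enzyme activators and other proteins that act inside the lysosome or are degraded there. They were chosen by gene symbol and matched to the Ensembl identifiers of the deposited count table. All 39 were among its 51912 genes, and all 39 passed the filter on low counts that left 15703 genes to test. The study asked whether the order in which 2 leukemia oncogenes are switched on changes what bone marrow cells become. Its 11 RNA-seq samples came from lineage-negative, GFP-positive and RFP-positive marrow cells of C57BL/6 mice, transduced with retroviruses that carry human oncogenes and then kept for 48 h with 4-hydroxytamoxifen. The GFP vector is active from the start, and the inducible vector is switched on by the Cre recombinase that 4-hydroxytamoxifen activates in cells from Rosa26 ERT2-Cre mice. CSF3R-only cells (n = 4) carried CSF3R T618I in the active vector and an empty inducible vector. CSF3R-first cells (n = 3) carried CSF3R T618I in the active vector and CEBPA V314VW in the inducible one, so that mutant CEBPA came second. CEBPA-first cells (n = 4) carried the same pair the other way round. All 3 groups thus carried mutant CSF3R and received 4-hydroxytamoxifen, and no group with mutant CEBPA alone or with empty vectors was part of this experiment. In CEBPA-first mutant CSF3R was in the inducible vector, and in the other groups it was in the active one. The order of the oncogenes thus cannot be told apart from the vector of each and how long it was on. The labels do not say whether samples of a group came from separate animals or cultures, so p-values measure the spread between these samples, which may be technical.

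Lysosomes are acidic compartments in which hydrolases break down proteins, glycans, lipids and nucleic acids that arrive by endocytosis, phagocytosis or autophagy. A proton pump, the V-ATPase, acidifies the lumen, and heavily glycosylated proteins line the membrane. Tfeb, Tfe3 and Mitf are basic helix-loop-helix factors of the MiT/TFE family, which bind E-box-like sites in promoters of many lysosomal genes and are held in the cytoplasm by the nutrient-sensing kinase mTORC1. Neutrophils and macrophages are rich in lysosomal enzymes, and many of these genes are known from inherited storage diseases.

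The MiT/TFE factors are known to bind the palindrome TCACGTGA and its core CACGTG, so the promoters of the members were searched for both. Both letter strings read the same on either strand, and every TCACGTGA also holds a CACGTG. The windows ran from 250 bases before to 50 after each RefSeq start (GRCm38.p6), and 34 of the 39 members had at least 1 window, 41 windows in all. TCACGTGA stood in a window of 5 of the 34 genes (14.7%), against 304 of 27025 genes with windows (1.12%). Counted by window, it was in 12.2% of the members' windows and 0.974% of all windows. CACGTG was in 10 of the 34 genes (29.4%), against 8.09% of all genes, and in 24.4% against 7.15% of windows. The stretches below are shown because they are the 6 copies of the palindrome in the members' windows, 2 of them in Gla, each with the palindrome in capitals and read 5′ to 3′ on the gene's strand.
Atp6v0d1, GRCm38.p6 chr8:105566050-105566079, minus strand: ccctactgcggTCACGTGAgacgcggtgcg
Atp6v1a, GRCm38.p6 chr16:44139373-44139402, minus strand: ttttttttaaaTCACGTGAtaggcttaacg
Cln3, GRCm38.p6 chr7:126583340-126583369, minus strand: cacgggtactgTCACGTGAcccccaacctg
Gla, GRCm38.p6 chrX:134601215-134601244, minus strand: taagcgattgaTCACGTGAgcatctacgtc
Gla, GRCm38.p6 chrX:134601182-134601211, minus strand: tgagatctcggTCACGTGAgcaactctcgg
Mcoln1, GRCm38.p6 chr8:3500462-3500491, plus strand: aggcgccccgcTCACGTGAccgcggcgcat
The palindrome began 4 bases before the start of Atp6v0d1, 46 before that of Mcoln1, 122 before one of the Cln3 starts, 132 before that of Atp6v1a, and 228 and 195 before that of Gla. Lamp1 held no full palindrome but 4 copies of the core in the 72 bases before its start, shown in capitals.
Lamp1, GRCm38.p6 chr8:13159089-13159160, plus strand: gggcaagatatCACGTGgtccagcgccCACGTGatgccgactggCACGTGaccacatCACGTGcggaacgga
Gaa, Glb1, Naglu and Sgsh each held 1 core. The windows of Tfeb, Tfe3 and Mitf themselves held neither string. A match of letters is a description of the window and not a bound site.

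Total counts ran from 47905747 to 72268346 per sample. Among markers of blood progenitors, Ptprc, the pan-leukocyte phosphatase CD45, was at 464 CPM or more in every sample, and the progenitor receptor Kit was at 23.8 CPM or more. CPM here is a count scaled by the library's TMM-normalized size. Of 6 such markers, 3 fell and 2 rose in CEBPA-first against CSF3R-only (edgeR). Over all genes tested, 36.6% fell and 35.4% rose in that comparison, and these shares apply beside each marker count that follows here. Cd34, a surface protein of early progenitors, fell from a mean of 88.8 CPM in CSF3R-only to 17.9 CPM in CEBPA-first, with Ptprc and the myeloid factor Spi1 also lower and Kit and Runx1 higher. Markers of mature cells were counted too, although the sort on lineage antigens preceded the culture. The summed level of 10 neutrophil markers was 24392 to 29788 CPM in CSF3R-only, 13622 to 23663 CPM in CSF3R-first and 6137 to 8193 CPM in CEBPA-first, and all 10 fell in CEBPA-first against CSF3R-only. Among 12 monocyte and macrophage markers, 11 could be tested, of which 9 were lower and 2 higher in CEBPA-first, and their sum was 2465 to 3162, 1298 to 2253 and 613 to 916 CPM in the same order of groups. Of 6 T and NK cell markers, the defining T cell gene Cd3e had 0 counts in every sample and 3 could be tested, of which Nkg7 and Cd3d were lower and Klrb1c higher in CEBPA-first. Their sum was 76.5 to 134, 44.3 to 73.5 and 43.8 to 59.5 CPM, nearly all of it Nkg7, a granule protein of cytotoxic cells. The 7 megakaryocyte markers were all lower in CEBPA-first, with sums of 906 to 1230.2 CPM in CSF3R-only, 347 to 541 CPM in CSF3R-first and 113 to 156 CPM in CEBPA-first. All 4 eosinophil markers were lower too, with sums of 228 to 346, 54.7 to 127 and 27.2 to 34.1 CPM. Of 8 erythroid markers 7 were lower, and their sums were 259 to 375, 112 to 354 and 26.0 to 40.1 CPM, so that CSF3R-first overlapped CSF3R-only. Of 5 B cell markers 2 could be tested, 1 higher and 1 lower in CEBPA-first. The sums of all 5 were 3.59 to 4.51, 3.26 to 4.20 and 5.81 to 6.81 CPM, highest in CEBPA-first. Of 5 dendritic cell markers 2 could be tested and 1 was lower, with sums of 8.93 to 13.0, 5.94 to 10.7 and 1.76 to 2.13 CPM. The part of these cell types in the lysosome results was not tested. In bulk RNA, fewer cells of a type and less RNA of a gene per cell cannot be told apart.

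Lysosome genes were lower where mutant CEBPA came first. Against CSF3R-only, 33 of the 39 members fell in CEBPA-first (84.6%; edgeR adjusted p under 0.05), while 36.6% of all genes tested did. Ids, which removes sulfate from glycosaminoglycans, fell by 76.4%, Mitf by 73.2% and Lipa, which frees cholesterol from its esters, by 71.9%. In that comparison 3 members rose, Gusb, Manba and Atp6v1h, against 35.4% of all genes, and 3 were not called, Gaa, Neu1 and Galc. With a log2 fold change of at least 1 also required, 17 members were lower (43.6% of the members and 19.0% of all genes) and 0 were higher (8.07% of all genes). The median log2 fold change of the members was -0.79, and that of all genes was -0.0045.

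CSF3R-first lay between the other groups. Against CSF3R-only, 25 members fell in CSF3R-first (64.1%, against 21.1% of all genes), Gusb alone rose (21.6% of all genes did), and 13 were not called. Only Mitf also passed a log2 fold change of 1 downward (4.53% of all genes did), at the threshold itself and no longer with DESeq2, its size factors, total counts, no filter or only the compared groups, and 0 members did so upward (2.13%). Between the 2 orders of the oncogenes, 29 members were lower in CEBPA-first than in CSF3R-first (74.4%, against 24.3% of all genes), Gaa and Manba were higher (24.0% of all genes), and 8 were not called. Here Ids alone passed the fold threshold downward (10.3% of all genes), and 0 members passed it upward (2.57%). The medians of the members were -0.37 for CSF3R-first against CSF3R-only and -0.46 for CEBPA-first against CSF3R-first, beside -0.022 and 0.00052 over all genes. Both comparisons with CSF3R-only use the same 4 CSF3R-only samples. The mean CPM fell in steps from CSF3R-only over CSF3R-first to CEBPA-first in 33 of the 39 members (84.6%) and in 39.1% of all genes tested. It rose in that order in Gusb, Manba and Atp6v1h (7.69% of the members) and in 37.1% of all genes tested.

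**Figure D1:**
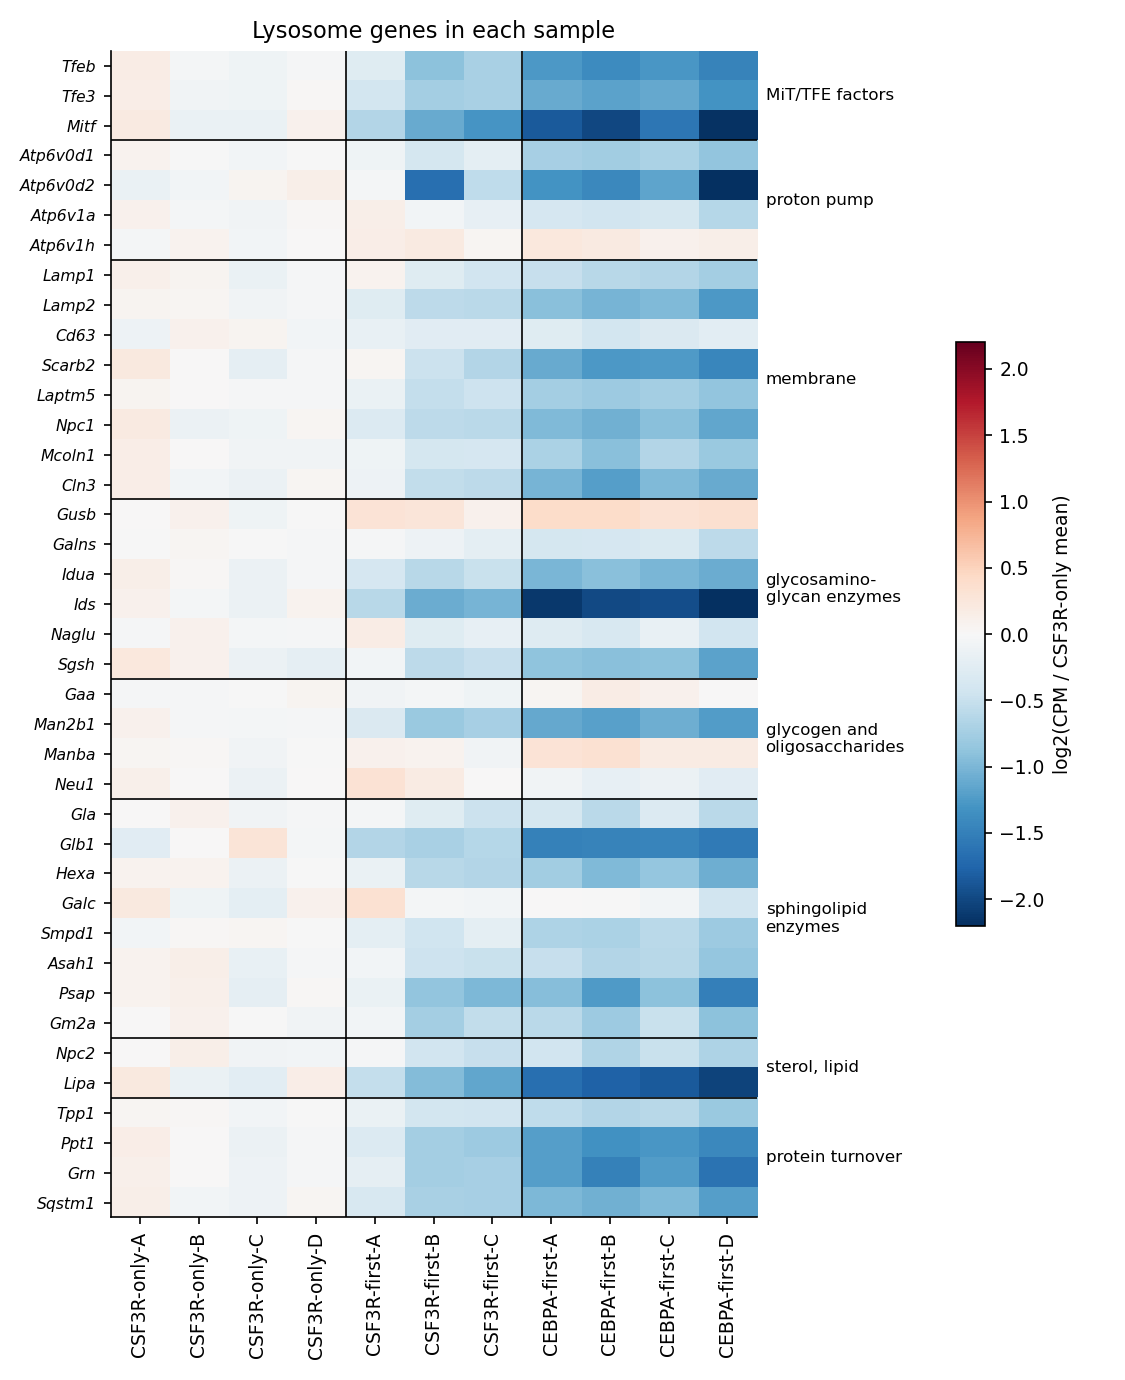
The heat map shows each of the 39 lysosome genes (rows, grouped by role) in each of the 11 samples (columns), blue for lower and red for higher. The value is the gene's log2 CPM minus the mean of its log2 CPM over the CSF3R-only samples. The CEBPA-first columns are blue for most genes, CSF3R-first replicate A is paler than replicates B and C, and the rows of Gusb, Manba and Atp6v1h are red on the right.

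The groups also separated sample by sample. All 4 CEBPA-first samples lay below all 4 CSF3R-only samples in 33 members, which held for 34.5% of all genes tested. All CSF3R-first samples lay below all CSF3R-only samples in 22 members (21.4% of all genes), and all CEBPA-first samples lay below all CSF3R-first samples in 27 members (24.8%).

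**Figure D2:**
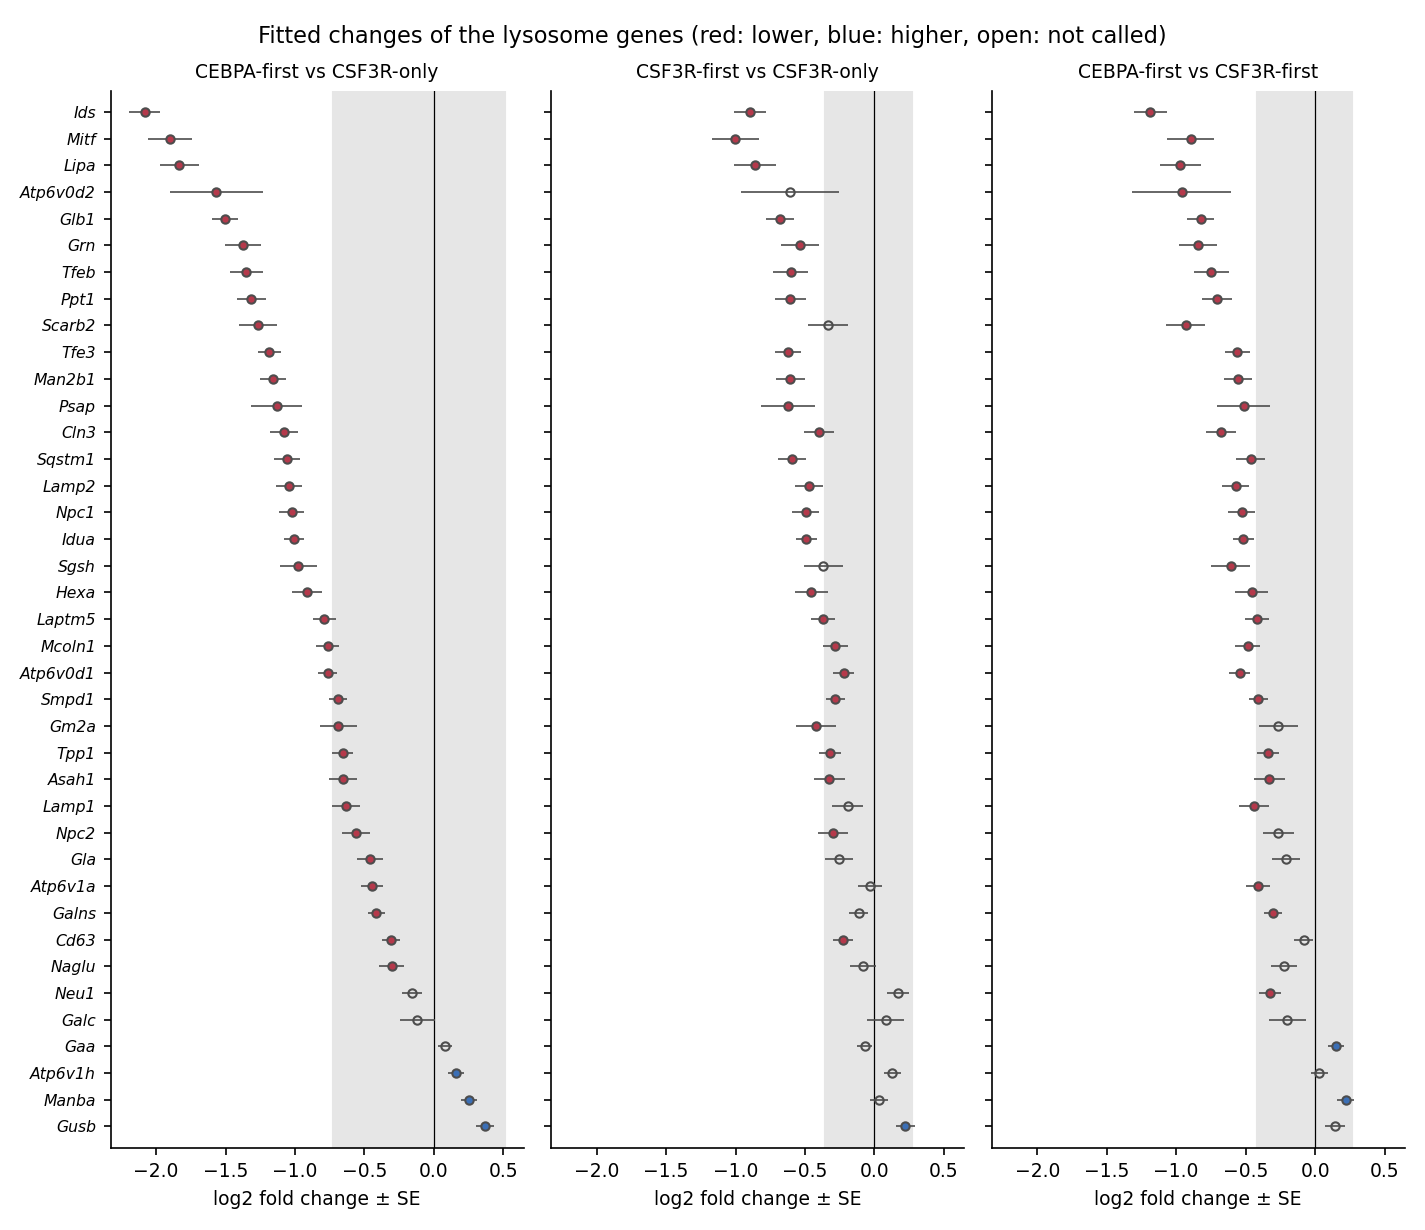
The 3 panels plot the fitted log2 fold change of each lysosome gene with its standard error, red for lower, blue for higher and open for not called at an edgeR adjusted p under 0.05, and the grey band spans the middle 50% of all tested genes. Ids, Mitf and Lipa stand farthest to the left in CEBPA-first against CSF3R-only, and Gusb farthest to the right.

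All 3 MiT/TFE members fell in each comparison, beside 36.6% of all genes in CEBPA-first and 21.1% in CSF3R-first against CSF3R-only and 24.3% between the 2 orders. Tfeb (GRCm38 ENSMUSG00000023990, chromosome 17, 47737030 to 47792419, plus strand) is the main activator of lysosome genes in many cell types. Tfeb was at 70.0, 60.3, 58.7 and 61.4 CPM in CSF3R-only replicates A to D, at 52.2, 33.5 and 38.0 CPM in CSF3R-first replicates A to C, and at 25.9, 23.8, 25.8 and 22.7 CPM in CEBPA-first replicates A to D. The 3 groups did not overlap, and CSF3R-first replicate A lay nearest to CSF3R-only. The log2 fold change (± SE, edgeR) was -1.35 ± 0.12 (adjusted p = 4.2e-07) in CEBPA-first and -0.60 ± 0.13 (adjusted p = 0.0025) in CSF3R-first against CSF3R-only, and -0.75 ± 0.12 (adjusted p = 4.6e-04) between CEBPA-first and CSF3R-first. Tfe3 (ENSMUSG00000000134, chromosome X, 7762560 to 7775202, plus strand) is its close relative. Tfe3 was at 181, 155, 154 and 168 CPM in the CSF3R-only samples, 124, 97.6 and 99.7 CPM in the CSF3R-first samples and 75.9, 72.8, 74.8 and 66.3 CPM in the CEBPA-first samples. Again no sample of one group reached another group. Its fold changes were -1.18 ± 0.08 (adjusted p = 8.4e-08), -0.62 ± 0.09 (adjusted p = 3.0e-04) and -0.56 ± 0.09 (adjusted p = 3.6e-04) in the same order of comparisons. Mitf (ENSMUSG00000035158, chromosome 6, 97807052 to 98021349, plus strand) is known from melanocytes, mast cells and osteoclasts. Mitf was at 26.0, 20.3, 20.3 and 24.2 CPM in the CSF3R-only samples, 14.4, 10.4 and 9.21 CPM in the CSF3R-first samples and 6.28, 5.61, 7.55 and 5.03 CPM in the CEBPA-first samples. Its groups were separate as well, the CEBPA-first samples being lowest. For Mitf the log2 fold changes were -1.90 ± 0.16 (adjusted p = 2.9e-07), -1.001 ± 0.17 (adjusted p = 6.7e-04) and -0.90 ± 0.17 (adjusted p = 9.9e-04). Per kilobase of exon, the mean CSF3R-only levels were 17.8 CPM for Tfe3, 11.04 for Tfeb and 3.67 for Mitf, and in CEBPA-first they were 7.82, 4.33 and 0.987. Mast cells express Mitf, and the sum of 8 mast cell and basophil markers was 1507 to 2344 CPM in CSF3R-only, 970.4 to 1167 CPM in CSF3R-first and 1087 to 1458 CPM in CEBPA-first. Of the 7 that could be tested, 4 were lower and 1 higher in CEBPA-first against CSF3R-only (36.6% and 35.4% of all genes). Against CSF3R-first 2 were lower and 3 higher (24.3% and 24.0%). The sum of 6 osteoclast markers was 129 to 156, 106 to 133 and 81.5 to 89.6 CPM in that order of groups, nearly all of it Nfatc1. Of the 5 tested, 4 were lower and 1 higher in CEBPA-first against CSF3R-only (36.6% and 35.4% of all genes). The part of these cells in the Mitf levels was not tested.

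The remaining family member, Tfec, is not one of the 39 genes and moved the other way. Tfec (GRCm38 ENSMUSG00000029553, chromosome 6, 16833373 to 16898441, minus strand) is expressed mainly in the myeloid lineage. Tfec was at 40.8, 42.3, 37.8 and 43.0 CPM in CSF3R-only replicates A to D, at 76.0, 78.4 and 66.0 CPM in CSF3R-first replicates A to C, and at 103, 97.7, 81.9 and 81.5 CPM in CEBPA-first replicates A to D. Every CEBPA-first sample lay above every CSF3R-first sample, and these above every CSF3R-only sample. The log2 fold changes (edgeR) were 1.15 ± 0.09 (adjusted p = 1.4e-07), 0.84 ± 0.09 (adjusted p = 4.3e-05) and 0.31 ± 0.09 (adjusted p = 0.016). Per kilobase, its mean level went from 7.32 CPM in CSF3R-only over 13.1 CPM in CSF3R-first to 16.2 CPM in CEBPA-first, where it was the highest of the 4 factors on that scale.

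**Figure D3:**
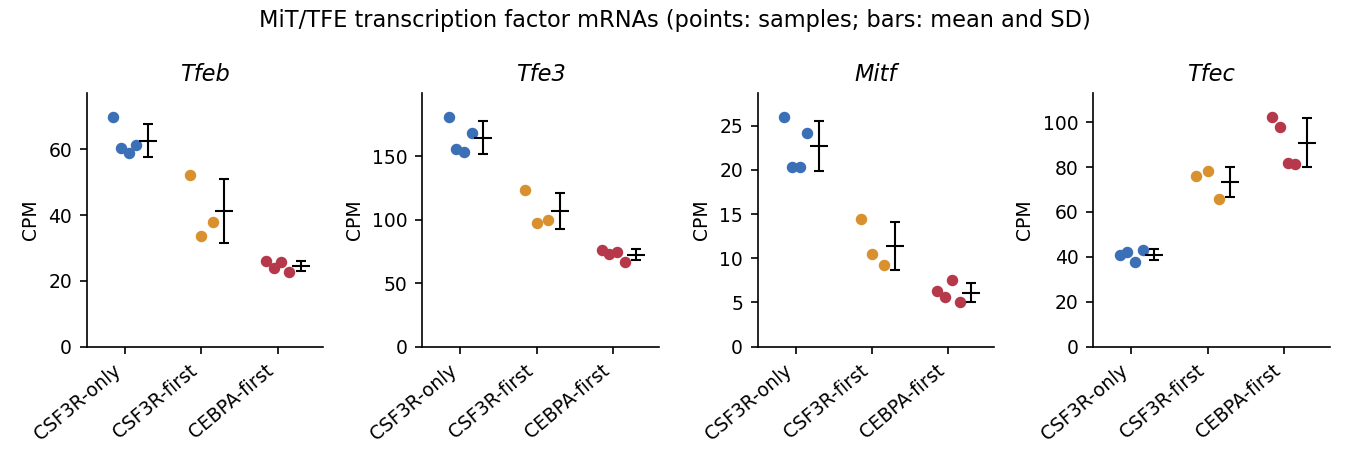
CPM (vertical axes from 0) of the 4 MiT/TFE factors in the 3 groups, with a point for each sample and bars for the mean and SD. Tfeb, Tfe3 and Mitf step down from left to right, and Tfec steps up from 41.0 to 90.9 CPM.

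Of the 4 proton pump members, 3 fell and 1 rose in CEBPA-first against CSF3R-only (36.6% and 35.4% of all genes). The d subunit, which joins the membrane and cytoplasmic parts of the pump, has the ubiquitous form Atp6v0d1 and the form Atp6v0d2 known from osteoclasts and macrophages. Atp6v0d1 was at 275, 258, 249 and 259 CPM in CSF3R-only replicates A to D, at 245, 199.7 and 225 CPM in CSF3R-first replicates A to C, and at 157, 153, 160.5 and 142 CPM in CEBPA-first replicates A to D. The CEBPA-first samples formed a group well apart, while CSF3R-first replicate A lay just under the lowest CSF3R-only sample. Atp6v0d1 changed by a log2 fold change of -0.76 ± 0.07 (adjusted p = 6.5e-07) in CEBPA-first against CSF3R-only and -0.54 ± 0.07 (adjusted p = 1.1e-04) against CSF3R-first, and by -0.22 ± 0.08 (adjusted p = 0.031) in CSF3R-first against CSF3R-only (edgeR). The last call was lost without CSF3R-only replicate A or D or CSF3R-first replicate B or C, and the fold change ran from -0.29 to -0.15 as each sample was left out in turn. That call was also lost with total counts, no filter or only the compared groups. Atp6v0d2 was at 4.86, 5.19, 5.62 and 5.89 CPM in the CSF3R-only samples, 5.24, 1.71 and 3.67 CPM in the CSF3R-first samples and 2.16, 2.01, 2.40 and 0.792 CPM in the CEBPA-first samples. CSF3R-first spanned the range from CSF3R-only to CEBPA-first, and CEBPA-first replicate D was the lowest of all. Its log2 fold change in CEBPA-first against CSF3R-only was -1.57 ± 0.33 (adjusted p = 8.8e-04). The difference between CSF3R-first and CSF3R-only was not called, -0.61 ± 0.35 (adjusted p = 0.18), and the one between CEBPA-first and CSF3R-first, -0.96 ± 0.36 (adjusted p = 0.041), was lost with only the compared groups in the fit, with the replicate block and when any of 8 samples was left out, at values from -1.28 without CSF3R-first replicate B, where it was called, to -0.58 without replicate A. Per kilobase, Atp6v0d2 was at 1.98 CPM and Atp6v0d1 at 145 CPM in CSF3R-only. The catalytic subunit Atp6v1a, at 505 ± 26.1, 494 ± 54.2 and 371 ± 29.7 CPM (mean ± SD, in the order CSF3R-only, CSF3R-first and CEBPA-first, which holds below), fell in CEBPA-first against both other groups, by log2 fold changes of -0.45 ± 0.08 (adjusted p = 2.6e-04) and -0.41 ± 0.09 (adjusted p = 0.0021), and did not differ detectably between CSF3R-first and CSF3R-only (-0.03 ± 0.09 (adjusted p = 0.80)). The regulatory subunit Atp6v1h, at 149.5 ± 6.55, 164 ± 9.02 and 167 ± 7.06 CPM, rose in CEBPA-first by 0.16 ± 0.06 (adjusted p = 0.024), a call lost without CSF3R-only replicate A or C or CEBPA-first replicate A or B. Its other fold changes were 0.13 ± 0.06 (adjusted p = 0.11) for CSF3R-first against CSF3R-only and 0.03 ± 0.06 (adjusted p = 0.72) for CEBPA-first against CSF3R-first.

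All 8 membrane proteins fell in CEBPA-first against CSF3R-only (36.6% of all genes did), 6 fell in CSF3R-first against CSF3R-only (21.1%), and 7 were lower in CEBPA-first than in CSF3R-first (24.3%). Lamp1 and Lamp2 are the most abundant glycoproteins of the lysosomal membrane. Lamp1 was at 1069, 1031, 889 and 974 CPM in the CSF3R-only samples, 1038, 823 and 739 CPM in the CSF3R-first samples and 693, 645, 634 and 588 CPM in the CEBPA-first samples. CSF3R-first replicate A stood within the CSF3R-only range and replicates B and C below it. Lamp1, which shares 9.31% of its exon bases with Grtp1, changed by -0.63 ± 0.10 (adjusted p = 9.1e-05) in CEBPA-first and, not called, by -0.19 ± 0.11 (adjusted p = 0.18) in CSF3R-first, where it was called without replicate A at -0.34 (adjusted p = 0.0076), and by -0.44 ± 0.11 (adjusted p = 0.0056) between the 2. Lamp2 was at 1324, 1302, 1203 and 1248 CPM in the CSF3R-only samples, 1056, 848 and 844 CPM in the CSF3R-first samples and 671, 621, 648 and 526 CPM in the CEBPA-first samples. No groups overlapped. Lamp2 fell by more than Lamp1 in the fit, with log2 fold changes of -1.04 ± 0.09 (adjusted p = 5.7e-07), -0.47 ± 0.10 (adjusted p = 0.0029) and -0.57 ± 0.10 (adjusted p = 6.3e-04), a difference between the genes that was not tested. Scarb2, the receptor that carries glucocerebrosidase to the lysosome, had the largest fold change of the 8 in CEBPA-first against CSF3R-only. Scarb2 was at 144, 125, 109 and 122 CPM in the CSF3R-only samples, 129, 89.7 and 79.8 CPM in the CSF3R-first samples and 58.0, 51.7, 52.7 and 45.9 CPM in the CEBPA-first samples. CSF3R-first replicate A lay among the CSF3R-only samples, and all CEBPA-first samples lay far below. Its log2 fold changes were -1.26 ± 0.14 (adjusted p = 2.6e-06), -0.33 ± 0.15 (adjusted p = 0.082) and -0.93 ± 0.14 (adjusted p = 2.7e-04), and the second was not called. Without CSF3R-first replicate A that second value was -0.56 (adjusted p = 0.0011), a call. Npc1 moves cholesterol out of the lysosome. Npc1 was at 56.5, 45.1, 46.1 and 50.8 CPM in the CSF3R-only samples, 39.9, 33.0 and 32.6 CPM in the CSF3R-first samples and 25.3, 23.8, 26.1 and 22.4 CPM in the CEBPA-first samples. Its groups were separate, and the log2 fold changes were -1.02 ± 0.09 (adjusted p = 4.8e-07), -0.50 ± 0.10 (adjusted p = 0.0017) and -0.53 ± 0.10 (adjusted p = 8.7e-04). Cln3 is a membrane protein mutated in a childhood neurodegeneration. Cln3 was at 123, 106, 101 and 114 CPM in the CSF3R-only samples, 102, 76.2 and 74.6 CPM in the CSF3R-first samples and 54.7, 47.9, 56.4 and 51.4 CPM in the CEBPA-first samples. CSF3R-first replicate A overlapped CSF3R-only and no other sample did. Cln3, with a near-identical stretch of Apobr over 13.8% of its transcript, gave -1.08 ± 0.10 (adjusted p = 8.0e-07), -0.40 ± 0.11 (adjusted p = 0.010) and -0.68 ± 0.11 (adjusted p = 3.2e-04), and its second call was lost without CSF3R-first replicate B or C.

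The other 3 membrane proteins fell in CEBPA-first as well. Laptm5, a lysosomal protein of blood cells, was at 1512 ± 40.3, 1169.5 ± 166 and 875 ± 34.3 CPM and fell by log2 fold changes of -0.79 ± 0.08 (adjusted p = 1.7e-06), -0.37 ± 0.09 (adjusted p = 0.0050) and -0.42 ± 0.09 (adjusted p = 0.0019). The calcium channel Mcoln1, at 66.9 ± 5.06, 55.1 ± 6.46 and 39.3 ± 3.33 CPM, changed by -0.77 ± 0.09 (adjusted p = 3.5e-06), -0.28 ± 0.09 (adjusted p = 0.026) and -0.49 ± 0.09 (adjusted p = 0.0010). Its second call was lost without CSF3R-only replicate A or CSF3R-first replicate B or C, and also with total counts or no filter. The tetraspanin Cd63, at 875 ± 57.3, 748 ± 25.9 and 706 ± 34.1 CPM, had the smallest fold change of the 8 in CEBPA-first. It changed by -0.31 ± 0.07 (adjusted p = 9.4e-04) in CEBPA-first and -0.23 ± 0.07 (adjusted p = 0.023) in CSF3R-first, and the 2 orders did not differ detectably (-0.08 ± 0.07 (adjusted p = 0.36)). Without CSF3R-only replicate C or CSF3R-first replicate B or C the call in CSF3R-first was lost, as it was with total counts, no filter or only the compared groups. Near-identical copies of 16.1% of the Cd63 transcript exist elsewhere.

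Of 6 enzymes that degrade glycosaminoglycans, 5 fell in CEBPA-first against CSF3R-only and Gusb rose (36.6% and 35.4% of all genes). Ids (GRCm38 ENSMUSG00000035847, chromosome X, 70343069 to 70365084, minus strand), the iduronate sulfatase missing in Hunter syndrome, had the largest fold change of the 39 members in 2 of the 3 comparisons, Mitf having the larger one in CSF3R-first against CSF3R-only. Ids was at 54.3, 49.5, 46.3 and 53.8 CPM in CSF3R-only replicates A to D, at 33.3, 23.8 and 25.1 CPM in CSF3R-first replicates A to C, and at 11.7, 12.8, 13.2 and 10.5 CPM in CEBPA-first replicates A to D. The 3 groups stood clearly apart, with each CSF3R-first sample between the others. Ids changed by -2.08 ± 0.11 (adjusted p = 7.2e-09) in CEBPA-first and -0.90 ± 0.12 (adjusted p = 1.4e-04) in CSF3R-first against CSF3R-only, and by -1.19 ± 0.12 (adjusted p = 8.2e-06) between the 2 orders (edgeR). Idua, which acts just after Ids on the same chains, is the enzyme missing in Hurler syndrome. Idua was at 54.9, 51.6, 46.3 and 49.4 CPM in the CSF3R-only samples, 38.9, 33.0 and 36.1 CPM in the CSF3R-first samples and 25.1, 26.8, 25.2 and 23.6 CPM in the CEBPA-first samples. Its groups did not overlap either, and its log2 fold changes were -1.01 ± 0.07 (adjusted p = 8.6e-08), -0.49 ± 0.08 (adjusted p = 4.9e-04) and -0.52 ± 0.08 (adjusted p = 2.2e-04). Gusb (GRCm38 ENSMUSG00000025534, chromosome 5, 129989011 to 130003049, minus strand), the beta-glucuronidase of the same pathway, went the opposite way. Gusb was at 297, 317, 278 and 293 CPM in the CSF3R-only samples, 366, 355 and 315 CPM in the CSF3R-first samples and 391, 390.4, 369 and 377 CPM in the CEBPA-first samples. Every CEBPA-first sample exceeded every sample of the other groups, and CSF3R-first replicate C lay within the CSF3R-only range. Gusb rose by 0.37 ± 0.06 (adjusted p = 1.9e-04) in CEBPA-first and 0.22 ± 0.07 (adjusted p = 0.021) in CSF3R-first, the latter a call lost without CSF3R-only replicate C or D or CSF3R-first replicate A or B, and the 2 orders differed by 0.14 ± 0.07 (adjusted p = 0.11), which was not called. The sulfatase Sgsh, at 16.3 ± 2.34, 12.7 ± 2.56 and 8.30 ± 0.772 CPM, gave -0.98 ± 0.13 (adjusted p = 1.9e-05), -0.37 ± 0.14 (adjusted p = 0.052) and -0.61 ± 0.14 (adjusted p = 0.0038), and 21.6% of its exon bases overlap Card14. Its second value was called when any of 4 samples was left out, at -0.54 (adjusted p = 0.0038) without CSF3R-first replicate A. It was also called with DESeq2 and with the replicate block. Galns, another sulfatase, was at 61.4 ± 1.04, 56.8 ± 3.67 and 46.1 ± 3.26 CPM, with -0.42 ± 0.06 (adjusted p = 5.2e-05), -0.11 ± 0.07 (adjusted p = 0.20) and -0.30 ± 0.07 (adjusted p = 0.0030). Naglu, the glucosaminidase of heparan sulfate, was at 74.3 ± 3.06, 70.1 ± 11.3 and 60.1 ± 4.68 CPM. It fell in CEBPA-first against CSF3R-only, by -0.31 ± 0.09 (adjusted p = 0.0071), and gave -0.08 ± 0.10 (adjusted p = 0.51) and -0.22 ± 0.09 (adjusted p = 0.070) in the other comparisons. The first of these was called without CSF3R-first replicate A (-0.22, adjusted p = 0.030), and the second without CEBPA-first replicate C or CSF3R-first replicate B or C.

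Among the 4 enzymes of glycogen and oligosaccharides, 1 fell, 1 rose and 2 were not called in CEBPA-first against CSF3R-only, where 36.6% of all genes fell and 35.4% rose. Man2b1 and Manba remove alpha-linked and beta-linked mannose from glycans, and their mRNAs went opposite ways. Man2b1 was at 584, 539.8, 532 and 541 CPM in the CSF3R-only samples, 440.2, 311 and 331 CPM in the CSF3R-first samples and 252, 239, 259 and 233 CPM in the CEBPA-first samples. All groups were separate, and CSF3R-first replicate A was again the highest of its group. Man2b1 fell by log2 fold changes of -1.16 ± 0.10 (adjusted p = 2.9e-07), -0.61 ± 0.10 (adjusted p = 7.8e-04) and -0.55 ± 0.10 (adjusted p = 9.1e-04). Manba was at 64.7, 64.0, 59.4 and 62.2 CPM in the CSF3R-only samples, 66.5, 66.1 and 59.5 CPM in the CSF3R-first samples and 77.1, 78.8, 71.1 and 71.1 CPM in the CEBPA-first samples. The CEBPA-first samples lay above all others, and CSF3R-first overlapped CSF3R-only. Manba rose by 0.25 ± 0.06 (adjusted p = 0.0019) against CSF3R-only and 0.22 ± 0.06 (adjusted p = 0.014) against CSF3R-first, the latter a call lost without CSF3R-first replicate C, and stood at 0.03 ± 0.06 (adjusted p = 0.71) between CSF3R-first and CSF3R-only. Gaa, the acid glucosidase of glycogen, was at 102 ± 2.87, 96.8 ± 1.54 and 108 ± 4.99 CPM. Its only call was 0.15 ± 0.05 (adjusted p = 0.037) between CEBPA-first and CSF3R-first, lost when any of 6 samples was left out, beside 0.08 ± 0.05 (adjusted p = 0.17) and -0.07 ± 0.05 (adjusted p = 0.32) against CSF3R-only. That call was also lost with no filter, only the compared groups or the replicate block. With total counts Gaa was called higher in CEBPA-first against CSF3R-only too, at 0.21 (edgeR adjusted p = 0.003). The sialidase Neu1, at 177 ± 12.1, 199 ± 21.2 and 159 ± 7.57 CPM, had its highest mean in CSF3R-first. Its log2 fold change for CEBPA-first against CSF3R-first was -0.33 ± 0.08 (adjusted p = 0.0052), and neither difference from CSF3R-only was called (-0.16 ± 0.07 (adjusted p = 0.074) and 0.17 ± 0.08 (adjusted p = 0.11)).

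Of 8 enzymes and activators of sphingolipid breakdown, 7 fell in CEBPA-first and 6 in CSF3R-first against CSF3R-only (36.6% and 21.1% of all genes). Glb1 (GRCm38 ENSMUSG00000045594, chromosome 9, 114401076 to 114474898, plus strand), the lysosomal beta-galactosidase, led them. Glb1 was at 162, 193, 235 and 186 CPM in CSF3R-only replicates A to D, at 122, 117 and 124 CPM in CSF3R-first replicates A to C, and at 68.5, 69.2, 70.3 and 65.7 CPM in CEBPA-first replicates A to D. The CSF3R-first and CEBPA-first samples were each tightly grouped, and no groups overlapped. Glb1 changed by -1.50 ± 0.09 (adjusted p = 2.3e-08) and -0.68 ± 0.10 (adjusted p = 2.9e-04) against CSF3R-only and by -0.82 ± 0.10 (adjusted p = 3.4e-05) between the 2 orders (edgeR), and it shares 5.49% of its exon bases with Tmppe. Psap (GRCm38 ENSMUSG00000004207, chromosome 10, 60277627 to 60302597, plus strand), the precursor of the saposins that present lipids to these enzymes, had the highest level per kilobase of all 39 members, at 1287, 837 and 587 CPM from CSF3R-only over CSF3R-first to CEBPA-first. Psap was at 3703, 3782, 3057 and 3584 CPM in the CSF3R-only samples, 3186, 1927 and 1780.4 CPM in the CSF3R-first samples and 1842, 1485, 1879 and 1234 CPM in the CEBPA-first samples. CSF3R-first replicate A reached the CSF3R-only range while replicate C fell within that of CEBPA-first, so this group spread over nearly the whole distance. Its log2 fold changes were -1.13 ± 0.18 (adjusted p = 8.2e-05), -0.62 ± 0.20 (adjusted p = 0.022) and -0.51 ± 0.19 (adjusted p = 0.041). The second call was lost without CSF3R-first replicate B or C, and that between the 2 orders without any of 5 samples, CSF3R-first replicate A among them. The call between the 2 orders was also lost with only the compared groups in the fit. As each sample was left out in turn, the value between the 2 orders ran from -0.67 to -0.20, the latter without replicate A.

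Hexa, the alpha subunit of beta-hexosaminidase, was at 399 ± 26.4, 291 ± 59.8 and 212 ± 19.2 CPM and fell by log2 fold changes of -0.91 ± 0.11 (adjusted p = 6.7e-06), -0.46 ± 0.12 (adjusted p = 0.0083) and -0.46 ± 0.12 (adjusted p = 0.0064), the last at -0.27 without CSF3R-first replicate A, with 12.8% of its exon bases shared with Tmem202. The sphingomyelinase Smpd1, at 61.3 ± 1.93, 50.4 ± 4.23 and 38.0 ± 2.09 CPM, changed by -0.69 ± 0.06 (adjusted p = 7.7e-07), -0.28 ± 0.07 (adjusted p = 0.0061) and -0.41 ± 0.07 (adjusted p = 5.2e-04). The ceramidase Asah1, at 420.0 ± 36.0, 335 ± 56.0 and 267 ± 25.5 CPM, changed by -0.65 ± 0.10 (adjusted p = 7.8e-05), -0.32 ± 0.11 (adjusted p = 0.033) and -0.33 ± 0.11 (adjusted p = 0.026). These 3 enzymes thus stepped down over both comparisons, but the smaller steps of Asah1 were lost when single samples were left out, 5 of them for CSF3R-first against CSF3R-only and 3 for CEBPA-first against CSF3R-first. Gm2a, which lifts GM2 ganglioside to Hexa, was at 553 ± 26.8, 413 ± 105 and 343 ± 45.4 CPM. It changed by -0.69 ± 0.13 (adjusted p = 3.8e-04) in CEBPA-first and -0.42 ± 0.14 (adjusted p = 0.030) in CSF3R-first, a call lost without any of 5 samples or with only the compared groups. The 2 orders were not told apart (-0.26 ± 0.14 (adjusted p = 0.14)). The alpha-galactosidase Gla, at 86.3 ± 4.28, 72.4 ± 10.8 and 62.7 ± 6.63 CPM, fell in CEBPA-first against CSF3R-only by -0.46 ± 0.09 (adjusted p = 6.0e-04) and was not called in the others (-0.25 ± 0.10 (adjusted p = 0.061) and -0.21 ± 0.10 (adjusted p = 0.10)), though the former was called without CSF3R-first replicate A and the latter without replicate C. Galc, which degrades galactosylceramide, was at 52.1 ± 6.91, 55.1 ± 9.15 and 48.1 ± 6.30 CPM and was called in no comparison, with log2 fold changes of -0.12 ± 0.12 (adjusted p = 0.40), 0.08 ± 0.13 (adjusted p = 0.66) and -0.20 ± 0.13 (adjusted p = 0.24).

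Both members that handle sterols and neutral lipids fell in CEBPA-first (36.6% of all genes) and in CSF3R-first (21.1%) against CSF3R-only. Lipa (GRCm38 ENSMUSG00000024781, chromosome 19, 34492318 to 34527474, minus strand) is the acid lipase of the lysosome. Lipa was at 277, 214, 203 and 265 CPM in CSF3R-only replicates A to D, at 166, 123 and 108 CPM in CSF3R-first replicates A to C, and at 75.7, 69.3, 66.4 and 58.2 CPM in CEBPA-first replicates A to D. The samples of the 3 groups did not overlap. Lipa gave log2 fold changes of -1.83 ± 0.14 (adjusted p = 1.5e-07) and -0.86 ± 0.15 (adjusted p = 8.5e-04) against CSF3R-only and -0.97 ± 0.15 (adjusted p = 2.3e-04) between the 2 orders (edgeR). Npc2, which hands cholesterol to Npc1, was at 197 ± 13.0, 161 ± 29.8 and 134 ± 11.8 CPM and gave -0.56 ± 0.10 (adjusted p = 2.3e-04), -0.30 ± 0.11 (adjusted p = 0.043) and -0.26 ± 0.11 (adjusted p = 0.061). The second of these calls was lost when any of 8 samples was left out, and the third value was called when any of 3 was. That second call was also lost with total counts, no filter or only the compared groups.

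The 4 members of protein turnover and autophagy fell in each comparison (36.6%, 21.1% and 24.3% of all genes, in the order used above). Grn (GRCm38 ENSMUSG00000034708, chromosome 11, 102430315 to 102437048, plus strand) encodes progranulin, which is cut into granulins in the lysosome. Grn was at 1225, 1146, 1053 and 1118 CPM in the CSF3R-only samples, 991, 673 and 687 CPM in the CSF3R-first samples and 488, 407, 486 and 368 CPM in the CEBPA-first samples. The groups were apart, with CSF3R-first replicate A closest to CSF3R-only. Grn gave -1.38 ± 0.13 (adjusted p = 8.3e-07), -0.53 ± 0.14 (adjusted p = 0.0082) and -0.84 ± 0.14 (adjusted p = 3.8e-04). Ppt1 removes palmitate from proteins. Ppt1 was at 332, 299.9, 274 and 295 CPM in the CSF3R-only samples, 242, 177 and 172 CPM in the CSF3R-first samples and 129, 119, 123 and 112 CPM in the CEBPA-first samples. No groups overlapped, and its log2 fold changes were -1.31 ± 0.10 (adjusted p = 1.9e-07), -0.61 ± 0.11 (adjusted p = 0.0012) and -0.71 ± 0.11 (adjusted p = 2.8e-04). Sqstm1, or p62, carries ubiquitinated cargo into autophagosomes and is degraded with it. Sqstm1 was at 637, 557, 535 and 599 CPM in the CSF3R-only samples, 455, 353 and 348 CPM in the CSF3R-first samples and 292, 278, 296 and 250.4 CPM in the CEBPA-first samples. Its groups were separate too, with -1.06 ± 0.10 (adjusted p = 6.1e-07), -0.59 ± 0.10 (adjusted p = 8.8e-04) and -0.46 ± 0.10 (adjusted p = 0.0027), and Mrnip shares 17.3% of its exon bases. The peptidase Tpp1, at 249.7 ± 7.56, 200.1 ± 22.0 and 158 ± 11.8 CPM, had the smallest fold changes of the 4, -0.66 ± 0.07 (adjusted p = 4.3e-06), -0.32 ± 0.08 (adjusted p = 0.0073) and -0.34 ± 0.08 (adjusted p = 0.0044).

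**Figure D4:**
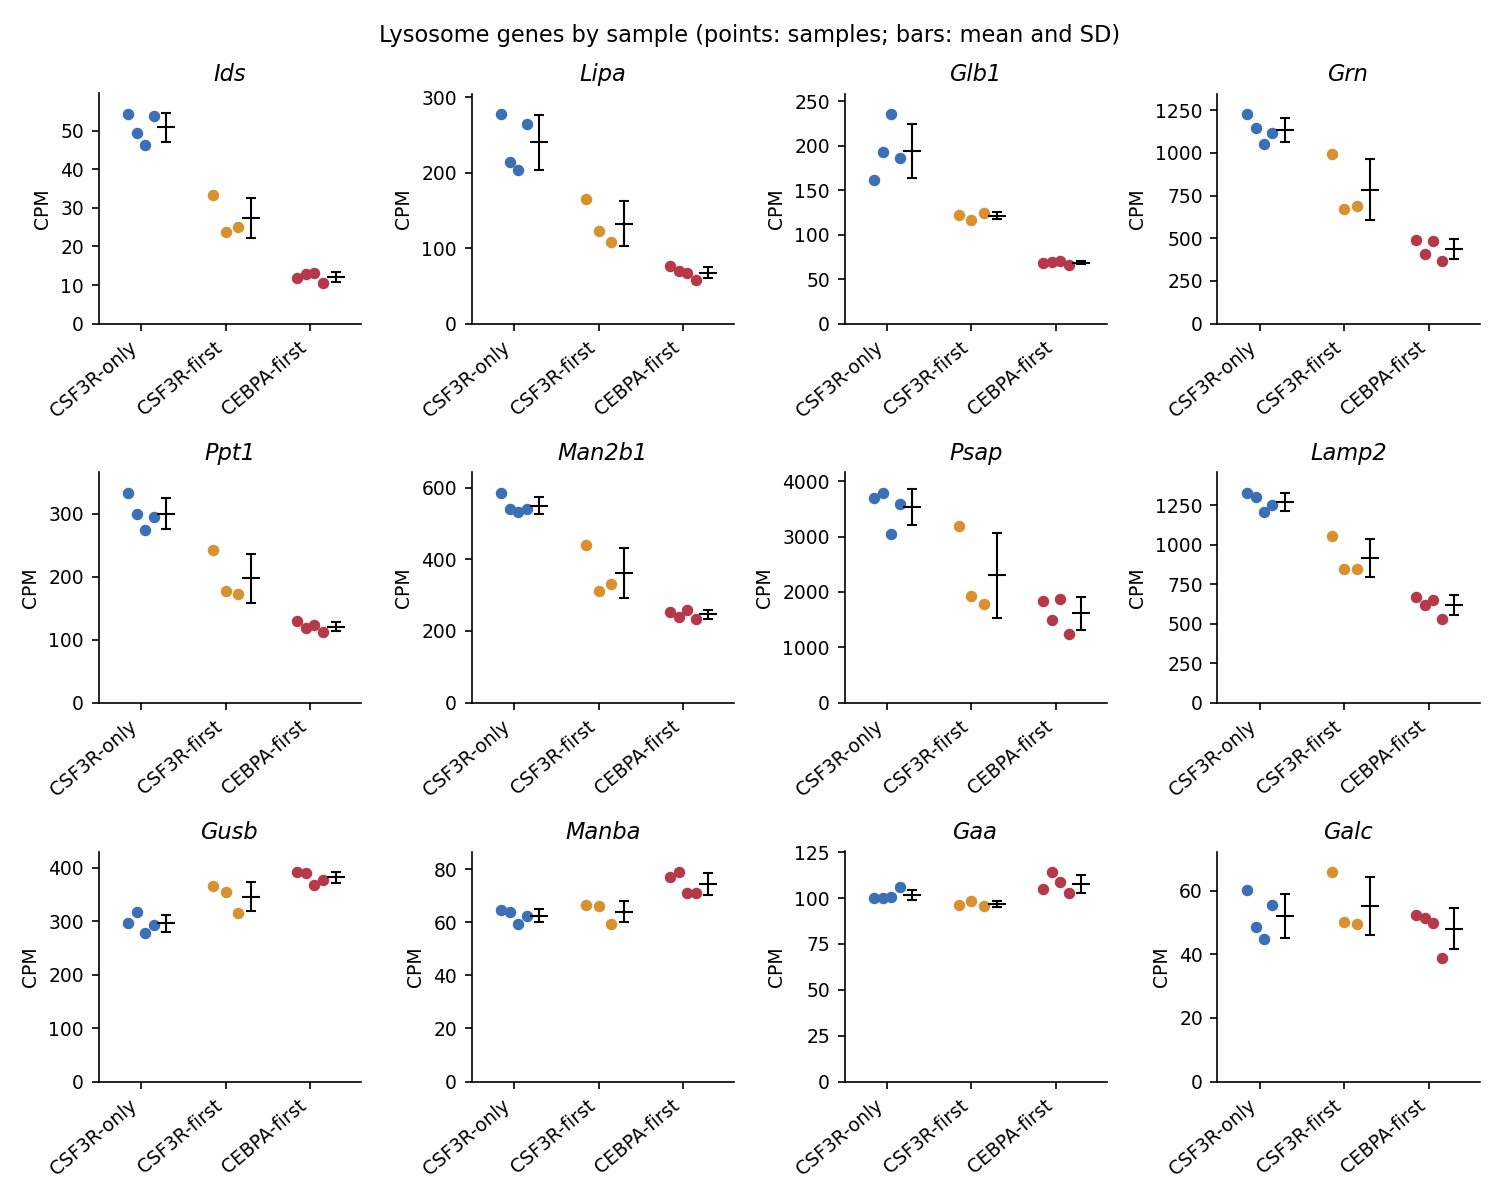
CPM (vertical axes from 0) of 12 lysosome genes in the 3 groups, with a point for each sample and bars for the mean and SD. Ids, Lipa, Glb1, Grn, Ppt1, Man2b1, Psap and Lamp2 step down toward CEBPA-first, Gusb and Manba are highest there, and Gaa and Galc were not called in CEBPA-first against CSF3R-only.

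The calls are given here by promoter letters, as a description, beside 36.6% of all genes tested that were lower in CEBPA-first against CSF3R-only. Of the 10 members with CACGTG in a promoter window, 9 fell in CEBPA-first against CSF3R-only, with a median log2 fold change of -0.70, and Gaa was the exception. All 5 with TCACGTGA were lower, at a median of -0.76. Of the 24 members whose windows held neither string, 20 were lower and 2 higher (35.4% of all genes), at a median of -1.02, and they include Ids, Mitf, Lipa, Grn and Ppt1. Of the 5 members without a window, 4 were lower and 1 higher. In CSF3R-first against CSF3R-only, 4 of the 10 with CACGTG were lower, at a median of -0.24 (21.1% of all genes). There 19 of the 24 with neither string were lower and 1 higher (21.6%), at -0.46. Between CEBPA-first and CSF3R-first, 7 of the 10 were lower and 1 higher, and 18 of the 24 were lower and 1 higher (24.3% and 24.0%). The difference between these sets was not tested.

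The 3 CSF3R-first samples did not lie together. The median difference of the 39 members from their CSF3R-only mean, on the log2 CPM scale, was -0.12 in replicate A, -0.52 in replicate B and -0.50 in replicate C, and ran from -0.91 to -0.74 over the CEBPA-first samples. Replicate A was the highest of the 3 in 35 members (89.7%) and in 40.2% of all genes. It was below every CSF3R-only sample in 22 members (33.4% of all genes), within their range in 10 and above it in 7, while replicates B and C were below every CSF3R-only sample in 33 and 34 members (38.1% and 35.9% of all genes). The summed level of the 39 genes was 14215, 10690.1 and 10441 CPM in CSF3R-first replicates A, B and C, 14544 to 16321 CPM in CSF3R-only and 7844 to 9403 CPM in CEBPA-first. Replicate A also had the highest sums of the CSF3R-first samples for the neutrophil markers (23663 CPM) and for the monocyte and macrophage markers (2253 CPM), and the lowest for the mast cell and basophil markers (970.4 CPM). Among the same samples it was highest for the eosinophil markers (127 CPM) and lowest for the megakaryocyte (347 CPM) and erythroid markers (112 CPM). The part of these cells in its lysosome values was not tested. Without replicate A, Atp6v0d2, Lamp1, Scarb2, Naglu, Sgsh and Gla, which were not called with all samples, were lower in CSF3R-first against CSF3R-only. Between CEBPA-first and CSF3R-first, Lamp1 went to -0.28 and Asah1 to -0.18 without replicate A. For CSF3R-first against CSF3R-only, Gm2a went to -0.64 without replicate A and -0.28 without B, and Npc2 to -0.46 and, without C, -0.19. Leaving out a sample also gave a call to Atp6v1h and Gm2a in 1 comparison each and to Neu1 in both with CSF3R-only. Without replicate A, 31 members in all were lower in CSF3R-first than in CSF3R-only, at a median log2 fold change of -0.54. Without replicate B, 17 were, at a median of -0.28. Between CEBPA-first and CSF3R-first the median was -0.32 without replicate A and -0.54 without replicate C. Of the calls made with all samples, 35 of 36 held under every sample left out in turn for CEBPA-first against CSF3R-only, 17 of 26 for CSF3R-first against CSF3R-only and 26 of 31 for CEBPA-first against CSF3R-first.

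**Figure D5:**
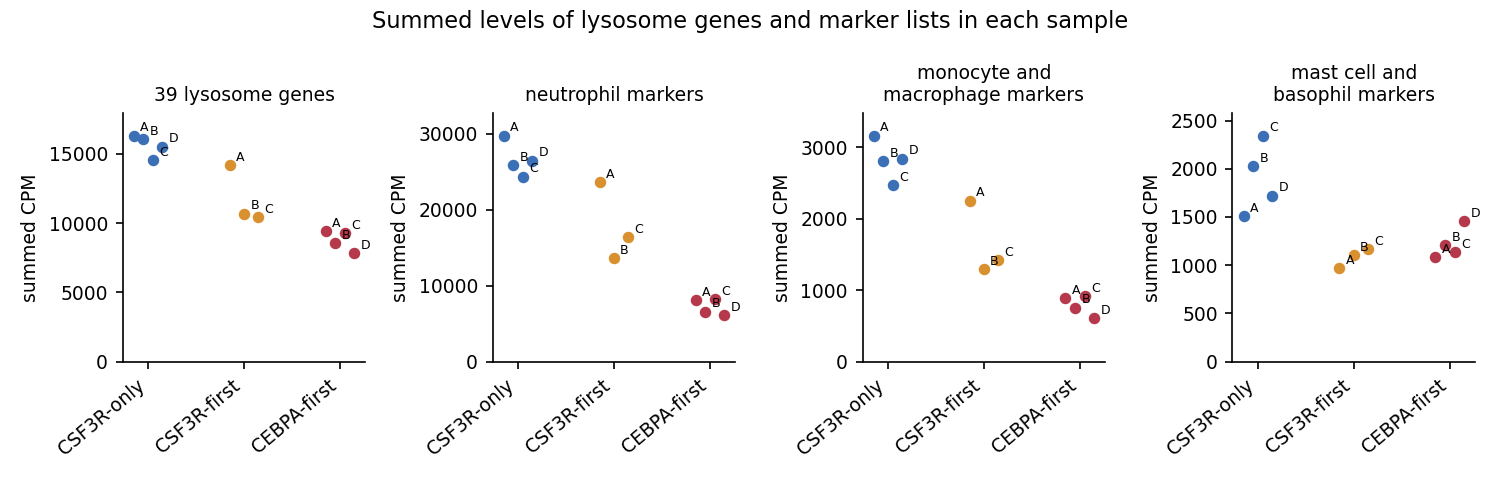
Summed CPM (vertical axes from 0) of the 39 lysosome genes, 10 neutrophil markers, 12 monocyte and macrophage markers and 8 mast cell and basophil markers in each sample, lettered by replicate. In the first 3 panels CEBPA-first is lowest and CSF3R-first replicate A lies above replicates B and C, and in the last panel CSF3R-only is highest.

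Another 75 genes of the lysosome, its sorting machinery and its nutrient-sensing control were read from the same fit, and all 75 were tested. In CEBPA-first against CSF3R-only 53 were lower (36.6% of all genes were), 9 higher (35.4%) and 13 not called. In CSF3R-first against CSF3R-only 27 were lower and 3 higher (21.1% and 21.6% of all genes), and in CEBPA-first against CSF3R-first 48 were lower and 6 higher (24.3% and 24.0%). Their median log2 fold changes were -0.48, -0.16 and -0.31 in that order. All 14 other subunits of the pump fell in CEBPA-first against CSF3R-only, by log2 fold changes between -0.79 (Atp6v0a1) and -0.23 (Atp6v0a2), the ends of that range, and 13 of 14 were lower than in CSF3R-first, while 4 were lower in CSF3R-first than in CSF3R-only. Of 22 other hydrolases, 16 were lower and 2 higher in CEBPA-first against CSF3R-only. Among them, the phosphatase Acp2, at 71.2 ± 7.40, 38.3 ± 8.86 and 20.4 ± 1.89 CPM, changed by -1.80 ± 0.13 (adjusted p = 7.0e-08) in CEBPA-first, though 12.6% of its exon bases overlap another gene. Of 16 other membrane proteins, 13 were lower and 0 higher. The peptide transporter Slc15a3, at 18.2 ± 0.781, 8.01 ± 3.54 and 3.05 ± 0.876 CPM, changed by -2.58 ± 0.24 (adjusted p = 6.7e-07), -1.19 ± 0.24 (adjusted p = 0.0023) and -1.40 ± 0.25 (adjusted p = 7.2e-04) in the 3 comparisons, with 28.1% of its exon bases shared with Tmem132a. Cd68, the macrophage sialoprotein, was at 322 ± 30.5, 185 ± 66.4 and 88.2 ± 20.1 CPM and changed by -1.87 ± 0.20 (adjusted p = 2.3e-06), -0.80 ± 0.21 (adjusted p = 0.0090) and -1.07 ± 0.21 (adjusted p = 0.0012).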

How the data were processed

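RNA-seq of 11 samples in 3 groups was analysed. The authors trimmed reads with Trimmomatic and aligned them with STAR (per the labels to mm10), from libraries of a low-input kit, and deposited raw counts per gene. The counting tool, annotation and use of strand are not given in the sources used here. Each sample's group came from its label. Counts were normalized by TMM, filtered with filterByExpr and tested in one fit of 3 groups with edgeR 4.0.16 (quasi-likelihood, two-sided, R 4.3.3), and p-values were adjusted by Benjamini-Hochberg over 15703 genes. A gene was called at an adjusted p under 0.05, and a second rule also asked for a log2 fold change of 1. Standard errors are the fold changes (log2) over the root of edgeR's F. Log2 CPM of single samples used a prior count of 2. Replicates differed by more than sampling noise (chi-square per degree of freedom 9.95 to 110), and a count of 0 allows up to 0.0648 CPM. Positions and exon lengths are from GENCODE M21 (GRCm38), near-identical stretches (100 bases at 97%) from BLAST 2.17.0, and promoter sequences from RefSeq (GRCm38.p6), matched by symbol. Figures used matplotlib 3.10.9.

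The members, the other lists and the tests were chosen with earlier results of these data known. Values in every sample are given for the MiT/TFE factors, Atp6v0d1, Atp6v0d2, Lamp1 and members past both thresholds in any comparison, and for Gusb, Manba and Tfec, added after their values were seen. Other members get means with SD and fold changes with SE. Of the other lysosome genes, at most 5 per direction and comparison past both thresholds are named, and 1 gene that this rule takes in is not reported here. Others were chosen after their values were seen, as stated with them. Alternatives were DESeq2 1.42.0, its size factors, total counts, no filter, only the compared groups, a replicate block and leaving out single samples. The fit was tested on simulated data.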

Additional observations from a re-analysis of the deposited data

Results flagged for a closer look

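In 78 groups of 4 samples tested, one for each member in CSF3R-only and in CEBPA-first, 2 had a sample far from the other 3, where chance gives about 3.9. Sgsh was at 7.15 CPM in CEBPA-first replicate D and between 8.63 and 8.76 CPM in the other CEBPA-first samples. Gaa was at 106 CPM in CSF3R-only replicate D and between 99.9 and 101 CPM in the others. CSF3R-first, with 3 samples, was not tested in this way.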

How the results depend on the processing

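Across all 39 members in 3 comparisons and every alternative, 1868 of 1989 values kept their direction and side of the threshold, 81 lost a call, 32 gained one, 8 moved without a call and 0 called values changed sign. The median of all genes moved to 0.13 in CEBPA-first against CSF3R-only with total counts, and by less in the other comparisons and with DESeq2's size factors. In CSF3R-first against CSF3R-only, 3 members were higher with total counts, and 0 were lower past the fold threshold with DESeq2, its size factors, total counts, no filter or only the compared groups, since Mitf lay at the threshold. In CEBPA-first against CSF3R-first, 1 member was higher without the filter, with only the compared groups or with the replicate block, and 2 were lower past the fold threshold with only the compared groups. In CEBPA-first against CSF3R-only, 12 members were lower past the fold threshold with total counts and 13 without the filter, against 17. The cause was not tested. With samples left out in turn, 33 to 34 members were lower, 2 to 3 higher and 14 to 18 lower past the fold threshold in CEBPA-first against CSF3R-only, at medians of -0.81 to -0.76. In CSF3R-first against CSF3R-only 17 to 31 were lower, 0 to 3 higher (0 without CSF3R-only replicate C or D or CSF3R-first replicate A or B, 3 without CSF3R-first replicate C) and 0 to 3 lower past the fold threshold (3 without CSF3R-first replicate A), at medians of -0.54 to -0.28. In CEBPA-first against CSF3R-first 26 to 32 were lower, 0 to 2 higher (0 without CSF3R-first replicate C) and 1 to 4 lower past the fold threshold (4 without CSF3R-first replicate C), at medians of -0.54 to -0.32.

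Same-lettered samples correlated at -0.11 to 0.36 in their deviations from the group means, and the labels do not say what a letter stands for. With the letter as a replicate block, 34 members were lower in CEBPA-first and 29 in CSF3R-first against CSF3R-only. The block added calls to Lamp1, Scarb2, Sgsh and Gla in CSF3R-first and to Neu1 in CEBPA-first, all against CSF3R-only. Between CEBPA-first and CSF3R-first, Atp6v0d2 and Gaa lost their calls with it. At the lowest depth, 47905747 counts, Atp6v0d2 is the member with the fewest counts, and its differences are the least precise.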

Other observations

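Of 9 genes that sort enzymes to the lysosome, 3 were higher, 3 lower and 3 not called in CEBPA-first against CSF3R-only (edgeR), near the shares over all genes tested, 35.4% higher and 36.6% lower. Gnptab, which builds the mannose 6-phosphate tag, was at 84.2 ± 7.01, 102 ± 11.2 and 119 ± 14.0 CPM (mean ± SD, here and below from CSF3R-only over CSF3R-first to CEBPA-first) and rose by log2 fold changes of 0.50 ± 0.09 (adjusted p = 3.1e-04) in CEBPA-first and 0.28 ± 0.10 (adjusted p = 0.040) in CSF3R-first, both against CSF3R-only. Nagpa, which uncovers the tag, was at 86.4 ± 4.20, 104 ± 4.29 and 114 ± 6.05 CPM and rose by 0.41 ± 0.06 (adjusted p = 3.2e-05) and 0.26 ± 0.06 (adjusted p = 0.0053) in the same order. The sorting receptor M6pr, at 395 ± 18.3, 362 ± 11.04 and 337 ± 20.7 CPM, changed by -0.23 ± 0.06 (adjusted p = 0.0048) in CEBPA-first, and Sort1, a receptor that carries Psap and Grn among others, was at 253 ± 41.7, 194 ± 30.9 and 107 ± 16.8 CPM and changed by -1.24 ± 0.14 (adjusted p = 3.6e-06) in CEBPA-first, with -0.38 ± 0.15 (adjusted p = 0.052) in CSF3R-first.

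Of Tfec and 13 genes of the nutrient-sensing complexes that hold MiT/TFE factors in the cytoplasm, 7 were lower and 4 higher, Tfec among the latter, in CEBPA-first against CSF3R-only, beside the same 36.6% and 35.4% of all genes. Rragd, a GTPase known as a target of these factors, was at 4.51, 3.40, 3.14 and 3.85 CPM in the CSF3R-only samples, 2.48, 1.67 and 1.39 CPM in CSF3R-first and 0.513, 0.460, 0.845 and 0.396 CPM in CEBPA-first, with no overlap between groups. Its log2 fold changes were -2.77 ± 0.25 (adjusted p = 6.7e-07), -1.02 ± 0.25 (adjusted p = 0.0063) and -1.75 ± 0.27 (adjusted p = 2.7e-04). Fnip2, a partner of folliculin, was at 137 ± 22.3, 102 ± 15.2 and 48.2 ± 5.91 CPM and changed by -1.51 ± 0.13 (adjusted p = 3.7e-07), -0.43 ± 0.14 (adjusted p = 0.024) and -1.08 ± 0.14 (adjusted p = 5.5e-05). Mtor and Rptor, the kinase of mTORC1 and its scaffold, were at 45.9 ± 3.34, 51.4 ± 3.69 and 59.1 ± 5.84 CPM and 33.7 ± 1.79, 38.9 ± 3.53 and 45.6 ± 3.64 CPM and rose in CEBPA-first by 0.37 ± 0.08 (adjusted p = 0.0010) and 0.44 ± 0.07 (adjusted p = 1.5e-04). Gnptab, Nagpa, M6pr, Sort1, Mtor and Rptor were chosen after their values were seen, as were Atp6v0a1 and Atp6v0a2 above.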
